A study of Strongylocentrotus purpuratus with 5 samples.

Results

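Regions of open chromatin that were wider at 20 h than at 12 h were described here in embryos of *Strongylocentrotus purpuratus*, the purple sea urchin. The members were chosen by comparing 2 lists of accessible regions, each called on the pooled ATAC-seq libraries of a stage. A pair was kept when a region of each list overlapped only the other by at least 1 bp, and a member was a pair whose 20 h length was at least 2 times its 12 h length. There were 3216 such regions among 132054 pairs, or 2.44% of them, out of 258515 regions at 20 h and 238838 at 12 h in all. The rule used the lengths of both stages, so the lengths, edges and shares that follow from them are a description and carry no test.

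ATAC-seq was run on nuclei of whole embryos of 2 stages, both named hatching blastula in the labels, with no treatment or genetic change in either. The 12 h stage had 2 biological replicates, with nuclei prepared on a density gradient. The 20 h stage had 3 libraries, namely technical replicates 1 and 2 of biological replicate 1, whose nuclei came from another published preparation, and a single library of biological replicate 2, prepared on a density gradient. Preparation and biological replicate cannot be told apart at 20 h. Different batches of embryos were used, and each library mixes all embryonic territories, so more accessible cells and more access per cell cannot be told apart. The study's records give more reads to the 12 h stage, give replicate 1 most of the 20 h reads, and mix single and paired ends at 20 h. The separate 20 h libraries held 248700 and 300000 peaks in technical replicates 1 and 2 and 160654 in replicate 2. The 300000 is the most the authors kept, so the weakest peaks of that library may be missing. The same limit was set for both pooled lists, whose peaks were then merged, so whether they reached it cannot be seen. For the 12 h stage only the pooled list was used, so no difference between stages has a replicate check.

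In ATAC-seq a transposase inserts adapters where DNA is not wrapped in tightly packed nucleosomes, and a peak caller marks stretches with more insertions than their surroundings. Such stretches often mark promoters and enhancers, where bound transcription factors displace nucleosomes. The width of a called region depends on how far the signal stays above background on either side, and a wide region can hold several close summits, the points of highest signal.

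The wider regions started short. Their 12 h length had a median of 210.5 bp and ranged from 150 bp, the shortest length in either list, to 710 bp. Over all pairs the median 12 h length was 369 bp. Of the wider regions 2281, or 70.9%, were under 250 bp at 12 h, against 22.4% of all pairs. At 20 h their median length was 550 bp, with a range from 302 to 1907 bp, whereas all pairs had a median of 291 bp. Regions short at 12 h were thus long at 20 h, on both counts unlike the typical pair, and this follows from the rule.

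The median gain was 325 bp and ran from 152 to 1445 bp, and 500 regions gained 500 bp or more. Together the regions gained 1173 kb. The ratio of lengths had a median of 2.39 and a maximum of 8.54. It lay from 2 to under 2.5 in 1883 regions, from 2.5 to under 3 in 698, from 3 to under 4 in 472 and at 4 or more in 163, so most regions lay close to the limit. Across all pairs the 20 h region was the shorter one, with a median ratio of 0.846. The opposite change, a 12 h region at least 2 times the 20 h length, was found in 18116 pairs, or 13.7%.

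A total of 22 regions had a ratio of exactly 2. The first of them by scaffold name lay on scaffold 1067 from 208311 to 208734, which is 424 bp against 212 bp at 12 h. The next lay on scaffold 1072 from 190522 to 190863, at 342 bp against 171 bp. Each had a peak in technical replicate 2 alone, at a fold enrichment over local background of 2.53 and 5.08. Just outside the limit, at a ratio of 1.997, were scaffold 460 from 438953 to 439711, at 759 bp against 380 bp, and scaffold 7697 from 7090 to 7846, at 757 bp against 379 bp. The former had a fold enrichment of 3.86 in technical replicate 2 alone, and the latter had 5.36 and 6.01 in technical replicates 1 and 2 and no peak in replicate 2. None of these 4 pairs therefore had a peak in replicate 2.

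Growth was compared at the left and the right edge, which here are the lower and the higher coordinate on the scaffold and say nothing of the direction of a gene. The 20 h region ran past both 12 h edges in 2007 regions, or 62.4% (95% Wilson interval 60.7 to 64.1). Over all pairs that share was 11.0%, and a gain in length makes it more likely. In 636 regions (19.8%) only the left edge moved out and in 573 (17.8%) only the right edge did. The larger gain was on the left in 1660 regions, on the right in 1554 and equal in 2, so the sides were close to even.

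Within a region the growth was mostly lopsided. A median of 93.9% of the gained bases lay on the side with the larger gain, and among the 2007 regions that grew past both edges it was still 82.6%. At least 50 bp were gained on each side in 1114 regions (34.6%). The 20 h region held the whole 12 h region in 2094 cases (65.1%). In the other 1122 (34.9%) part of the 12 h region was lost, by a median of 31 bp, so these were shifted as well as widened. Only 34 regions shared less than 50 bp with their 12 h counterpart, and 87 had an edge at the same base in both stages.

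**Figure D1:**
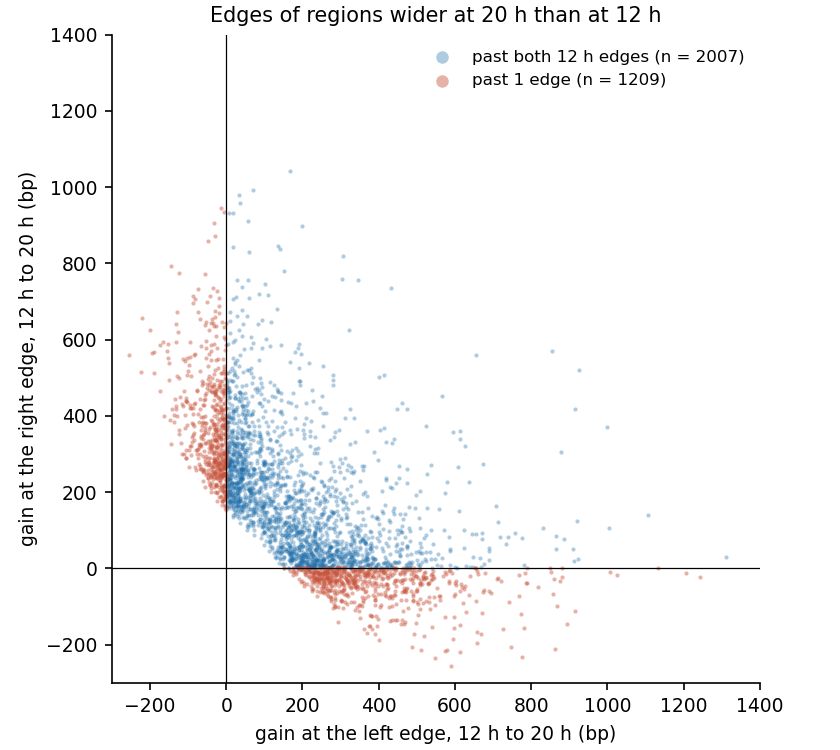
Gain at the left (x axis) and at the right edge (y axis), in bp, for each of the 3216 regions, with negative values where the 20 h edge lay inside the 12 h region. The 2007 regions that grew past both edges are blue and the 1209 that grew past a single edge are red, and most points lie near an axis, where growth was on 1 side.

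Other regions lay at distances not far from those of all pairs. The nearest other region of either stage was a median of 397 bp away, against 448 bp over all pairs. On the side of the larger gain the next 12 h region was a median of 1647.5 bp away, on the other side 1841 bp, and over both sides of all pairs 1333 bp. For the next 20 h region these distances were 1301, 1436.5 and 1462 bp. All these distances run from the outermost edge of the pair, so the gained bases themselves shorten the gap on the side of the larger gain. Nothing is therefore read from the difference between the 2 sides. A 12 h neighbour that the 20 h region had swallowed would have broken the 1-to-1 pair and cannot appear among these regions.

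The separate 20 h libraries show where in the widened region the signal stood highest. For each library the best summit was the summit of highest fold enrichment inside the 20 h region, and the 12 h part was the stretch shared with the 12 h region. In technical replicate 1 the best summit lay in the 12 h part in 1321 of 2771 regions (47.7%), in technical replicate 2 in 1810 of 3017 (60.0%) and in replicate 2 in 842 of 1416 (59.5%). With technical replicates averaged first, the mean was 56.6% ± 3.98 (SD, n = 2 biological replicates). The 12 h part made up 37.3% of the 20 h length on average, and the centre of the 20 h region fell in it in 36.1%. In every library the best summit was thus in the 12 h part more often than that part's share of length and in the gained part in the rest.

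Distances gave the same picture for 2 of the 3 libraries. The best summit lay a median of 72 bp from the 12 h centre and 123 bp from the 20 h centre in technical replicate 2, and 83.8 and 125 bp in replicate 2. In technical replicate 1 the order was the other way, at 130.5 bp from the 12 h centre and 114.5 bp from the 20 h centre. The technical replicates came from the same biological replicate, yet they differed more from each other than technical replicate 2 did from replicate 2. Matched by number of peaks to the study's quality report, technical replicate 1 had paired ends, and technical replicate 2 and replicate 2 had single ends. Whether single or paired ends had a part in this was not tested.

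The more a region had widened, the less often its best summit was in the 12 h part. At ratios from 2 to under 2.5 the share was 54.5, 66.1 and 64.8% in technical replicates 1 and 2 and replicate 2, where the 12 h part was 41.9% of the length. At ratios of 4 or more it was 25.3, 41.7 and 46.2%, with the 12 h part at 19.8%. The shares fell with the length of the 12 h part and stayed above it in each library and class.

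**Figure D2:**
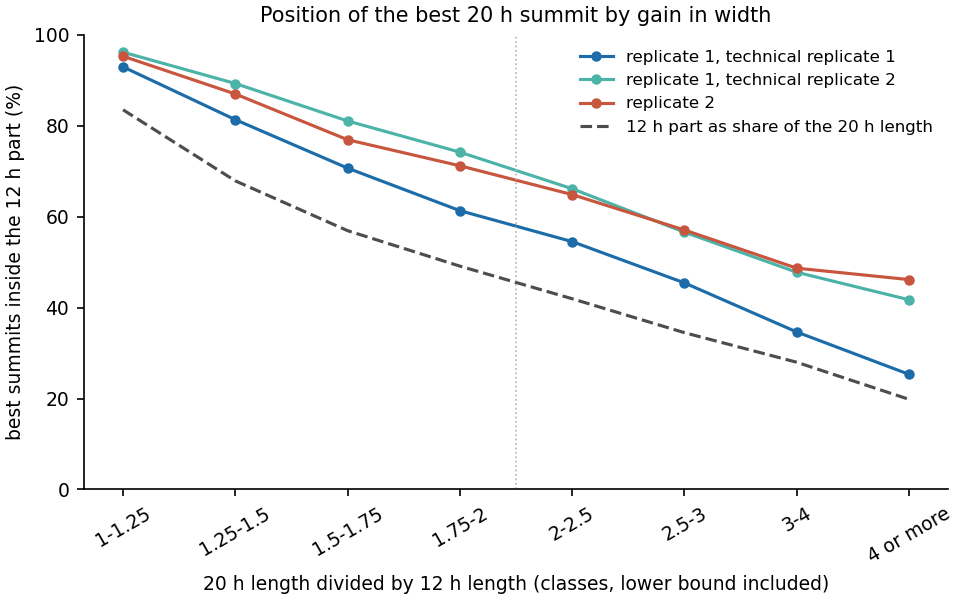
Share of regions whose best summit lay in the 12 h part (y axis, percent of regions with a summit in that library) by class of the ratio of 20 h to 12 h length (x axis), for each 20 h library, with the share of the 20 h length in the 12 h part as a dashed line. The dotted line marks the limit of 2, to whose left lie pairs that are not members, and at 4 or more the libraries sit at 25.3, 41.7 and 46.2% over a dashed line at 19.8%.

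Where the best summit was in the gained part, it was on the side of the larger gain in 93.7, 92.4 and 92.3% of cases in technical replicates 1 and 2 and replicate 2. That side held 89.7, 88.5 and 88.9% of the gained length in the same regions, so these summits followed the gained length closely. Wider regions held several summits of a library more often than other pairs in replicate 1, at 28.3% and 31.1% against 11.6% and 11.2%. In replicate 2 the shares were 14.1% and 11.3%. The sets were not matched on length, and by the rule wider regions were longer at 20 h (median 550 against 286 bp). Nothing is therefore read from these differences. Some 615, 812 and 169 regions had a summit in both parts, and there the 12 h part was the higher one in 55.4, 60.3 and 59.8%. The median difference in log2 fold enrichment, 12 h part minus gained part, was 0.05, 0.18 and 0.26. In other pairs it was 0.22, 0.29 and 0.40. Only regions with a called summit in both parts enter these values. They therefore do not give the relative height of the 2 parts in wider regions at large.

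A summit in the gained part was found in both biological replicates in 545 regions (16.9%), and a summit in the 12 h part in 732 (22.8%). Over all pairs, whose gained part is short by comparison, the shares were 1.30% and 39.0%. Library peaks covered 56.8, 65.0 and 17.2% of the gained bases in technical replicates 1 and 2 and replicate 2. They covered 61.6, 79.8 and 27.8% of the bases of the 12 h part. Over all pairs the gained bases were covered to 49.8, 56.2 and 20.1% and the 12 h part to 56.4, 76.4 and 38.8%, so that lower coverage of gained bases was common to all pairs. The library's peak lay in the gained part alone in 413, 214 and 303 wider regions, or 14.8, 7.04 and 20.8% of those with a peak. Over all pairs these shares were 1.5, 0.610 and 1.68%, and as the rule gives wider regions the longer gained part, nothing is read from the difference.

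Libraries placed their best summits less alike in wider regions than elsewhere. The summits of the technical replicates were a median of 157 bp apart and within 50 bp in 23.3% of 2594 regions. Between technical replicate 1 and replicate 2 these values were 160 bp and 21.3% of 1205 regions, and between technical replicate 2 and replicate 2 they were 133 bp and 27.9% of 1324. In 60106 other pairs with a 20 h region of at least 300 bp the medians were 94, 101 and 88 bp, although the sets were not matched on length. Among wider regions with a summit in both libraries of a pair, 1 library had its best summit in the 12 h part and the other in the gained part in 47.6, 46.6 and 44.6%. In the other pairs, where the 12 h part takes up most of the length, these shares were 8.84, 8.002 and 6.14%.

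Fold enrichment at the wider regions was low and close to that of other pairs. Medians were 3.26 and 3.16 in technical replicates 1 and 2 and 2.92 in replicate 2, with highest values of 16.1, 14.2 and 14.7. The mean over biological replicates was 3.07 ± 0.203 (SD, n = 2), against 3.01 ± 0.122 in other pairs, a difference within 1 SD. In replicate 2 the value 2.92 alone was held by 276 of the 1460 regions with a peak (18.9%), against 11.2% in other pairs, so many of its peaks were of 1 common low height. At like 20 h length the sets were close among short regions and apart among long ones. From 300 to 399 bp the mean was 2.97 ± 0.0701 in wider regions and 2.99 ± 0.0914 in other pairs, and from 400 to 499 bp it was 3.02 ± 0.133 and 3.103 ± 0.124, differences within 1 SD. From 600 to 799 bp the mean was 3.14 ± 0.311 in wider regions and 3.69 ± 0.0484 in other pairs. There replicate 2 had a median of 2.92 against 3.65, technical replicate 1 had 3.38 against 3.75 and technical replicate 2 had 3.34 against 3.69.

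Support by a peak of any width was counted next. Technical replicate 1 had a peak in 2799 of the 3216 regions (87.0%, against 67.4% over all pairs), and technical replicate 2 in 3038 (94.5% against 84.4%). Replicate 2 had a peak in 1460 (45.4% against 47.5%). A peak in both biological replicates was present in 1445 regions, or 44.9% (95% Wilson interval 43.2 to 46.7), where all pairs had 44.5%. The share with support in both replicates was thus at the level of all pairs. All 3 libraries had a peak in 1179 regions and none did in 2. Without technical replicate 1 the share in both replicates was 42.7%, and without technical replicate 2 it was 38.9%.

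Long regions are found more often than short ones, so regions of like length were compared. Among 20 h regions of 300 to 399 bp both replicates had a peak in 31.4% of wider regions (27.1 to 35.9) and in 49.1% of other pairs (48.4 to 49.7). From 500 to 599 bp the shares were 45.5% and 68.7%, and at 1000 bp or more they were 55.6% (47.6 to 63.2) and 91.0% (89.6 to 92.2). Wider regions had the lower share in each length class, and the gap was widest at 1000 bp or more.

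The gap was widest in replicate 2 in each class. From 300 to 399 bp a peak was present in 70.0% of wider regions and 76.4% of other pairs in technical replicate 1, in 87.3% and 89.9% in technical replicate 2 and in 33.7% and 50.2% in replicate 2. From 500 to 599 bp the shares were 86.0 and 91.2%, 94.2 and 97.3%, and 45.7 and 68.8%. Technical replicate 1 was thus also lower in the shorter classes, by less than replicate 2. From 600 to 799 bp technical replicate 1 had a peak in 95.2% of wider regions and 95.5% of other pairs, and technical replicate 2 in 97.2% and 98.9%. Replicate 2 had one in 53.5% and 77.8%. At 1000 bp or more the technical replicates reached from 99.4 to 100% in both sets, and replicate 2 had 55.6% and 91.0%. When pairs of like 12 h length were set side by side instead, the order was the other way: at 150 to 199 bp both replicates had a peak in 35.7% of wider regions and 21.8% of other pairs. A wider region was thus found less often than other regions of its 20 h length and more often than other regions of its 12 h length.

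**Figure D3:**
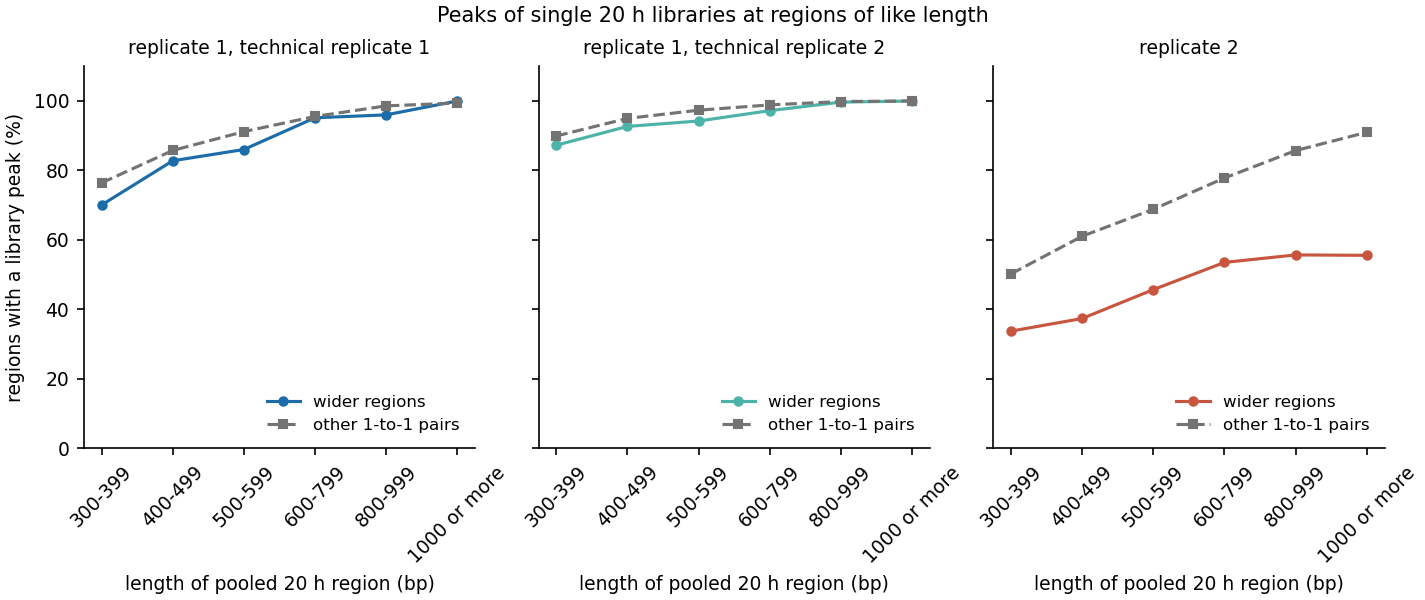
Share of regions with a peak in each 20 h library (y axis, percent) by length of the pooled 20 h region (x axis, bp), for wider regions (solid, colored) and other pairs (dashed, gray). At 300 to 399 bp wider regions and other pairs are at 70.0 and 76.4% in technical replicate 1, at 87.3 and 89.9% in technical replicate 2 and at 33.7 and 50.2% in replicate 2, where the lines end at 55.6 and 91.0%.

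A peak does not show that the region was as wide in that library. The width was counted as met when a library itself had a region of at least 2 times the 12 h length that overlapped the pooled 20 h region. Such a library region did not have to reach the 12 h part, so it could lie beside it. Technical replicates 1 and 2 met it in 839 (26.1%) and 1292 regions (40.2%), and replicate 2 met it in 216 (6.72%). At least 1 library met it in 1948 regions (60.6%, against 3.95% over all pairs), and none did in 1268 (39.4%). In both biological replicates it was met in 99 regions, or 3.08% (95% Wilson interval 2.54 to 3.73), against 0.105% over all pairs. The pooled lengths that chose the regions came from these same libraries, so that nothing is read from the distance to all pairs. All 3 libraries met the width in 21 regions.

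Most of the widths thus rested on replicate 1 or on the pool. In 1732 regions (53.9%) replicate 1 alone met the width, and of these 940 rested on technical replicate 2 only, 513 on technical replicate 1 only and 279 on both. The study's quality report puts technical replicate 2 in its lowest class of library complexity, with the most duplicate reads of the 20 h libraries. Whether this had a part in the widths was not tested. In 117 regions replicate 2 alone met it. The share met in both biological replicates fell from 3.08% to 2.27% without technical replicate 1 and to 1.46% without technical replicate 2.

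**Figure D4:**
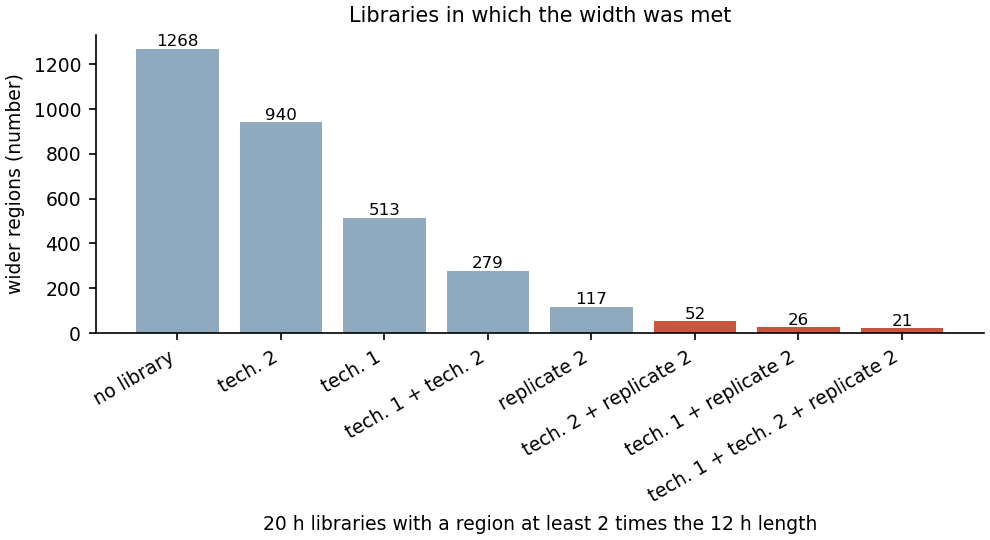
Number of wider regions (y axis) by the 20 h libraries in which the width was met (x axis; tech. 1 and tech. 2 are the technical replicates of replicate 1). The 52, 26 and 21 regions met in both biological replicates are red and add up to 99, against 1268 met in no library.

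The longest region a library had at a wider region shows the same in bp. Its median was 334 bp in technical replicate 1 and 393 bp in technical replicate 2, where all pairs had 255 and 277 bp. In replicate 2 it was 221 bp against 234 bp. Among 20 h regions of 600 to 799 bp the medians were 364, 461 and 230 bp in the 3 libraries, against 423, 558.5 and 390 bp in other pairs. Replicate 2, whose list was the shortest, thus had short regions at wider regions even where the pooled region was long. Whether its depth or its preparation had a part in this was not tested.

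The 99 regions met in both biological replicates had a median 12 h length of 189 bp, a 20 h length of 558 bp and a ratio of 2.74. Of these, 80.8% grew past both edges, against 58.3% of the regions met in no library, whose median ratio was 2.24. Their median fold enrichments were 3.52, 3.43 and 4.03 in technical replicates 1 and 2 and replicate 2. In the 1268 regions met in no library they were 3.22, 3.01 and 2.92. Since the libraries that met the width chose the 99, their higher values are a description only. The 117 regions met in replicate 2 alone had 4.38 in replicate 2 and 2.82 and 2.86 in the technical replicates, and the 1732 met in replicate 1 alone had 3.49 and 3.37 in its technical replicates and 2.92 in replicate 2. These sets too were chosen by the replicate that met the width, so nothing is read from their order. In the 1732 it was also the order of the regions met in no library. The best summit of the 99 lay in the 12 h part in 55.0, 60.2 and 63.0%, so also among these the gained part often held the best summit.

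The 10 largest gains among the 99 ran from 594 to 1371 bp. The largest was on scaffold 3, where a region from 2175651 to 2175834 (184 bp) at 12 h became one from 2174652 to 2176206 (1555 bp) at 20 h, a ratio of 8.45. It gained 999 bp on the left and 372 bp on the right. Its fold enrichments were 4.15 and 3.46 in technical replicates 1 and 2 and 3.58 in replicate 2, or 3.695 ± 0.160 (SD, n = 2). The libraries themselves had regions of 893, 683 and 524 bp there, all far above the 12 h length and below the pooled one. The best summit was in the 12 h part in technical replicate 1, 23.5 bp from its centre, and left of the 12 h region in the other 2 libraries, at -96.5 and -118.5 bp from its centre.

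The next was on scaffold 105, from 753836 to 754048 (213 bp) at 12 h and from 752921 to 754465 (1545 bp) at 20 h, with 915 bp gained on the left and 417 bp on the right. Its fold enrichments were 3.59, 2.58 and 3.49 in technical replicates 1 and 2 and replicate 2, with library regions of 1083, 1099 and 662 bp. The libraries were close in height but not in place: the best summits lay in the 12 h part, 422 bp to the right of its centre and 181 bp to the right of it. On scaffold 326 the 12 h region from 415230 to 415451 (222 bp) grew to 414618 to 415811 (1194 bp), by 612 bp on the left and 360 bp on the right. Its fold enrichments were 4.29, 3.43 and 3.45. No library had its best summit in the 12 h part there.

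On scaffold 870 the region from 121502 to 121692 (191 bp) grew to 121222 to 122174 (953 bp), with fold enrichments of 3.40, 2.90 and 5.67 in technical replicates 1 and 2 and replicate 2. On scaffold 4643 the region from 4944 to 5251 (308 bp) grew to 4776 to 5793 (1018 bp), with 7.50, 3.86 and 5.73. On scaffold 1533 the region from 45663 to 45852 (190 bp) grew to 45635 to 46515 (881 bp), nearly all on the right, with 4.29, 3.86 and 5.84. In these 3 regions the best summit of replicate 2 lay in the 12 h part, from 20.5 to 39.5 bp off its centre, and 1 of the technical replicates had its best summit in the gained part.

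Growth was to the left alone, or nearly so, in 3 of the 10. On scaffold 118 the region from 426199 to 426386 (188 bp) became 425489 to 426358 (870 bp), with a gain of 710 bp on the left and of -28 bp, a loss, on the right. Its fold enrichments were 5.90, 6.87 and 2.92, and all 3 best summits lay in the left gain, between -444.5 and -538.5 bp from the 12 h centre. The next closest region of either stage was 4419 bp away. The best summit thus stood well off the 12 h part in each library, though in replicate 2 at the low value common in that library. Technical replicate 1 had a region of 334 bp there and did not meet the width. On scaffold 2700 the region from 23961 to 24111 (151 bp) became 23294 to 24114 (821 bp), with fold enrichments of 2.55, 4.29 and 2.92 and again all 3 best summits in the left gain. On scaffold 4066 the region from 6255 to 6441 (187 bp) became 5669 to 6449 (781 bp), with 4.24, 3.97 and 2.96. There the best summits were in the left gain in technical replicate 1 and replicate 2, and in technical replicate 2 in the 12 h part.

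The last of the 10, on scaffold 385, grew evenly, from 405415 to 405603 (189 bp) to 405104 to 405894 (791 bp), by 311 bp on the left and 291 bp on the right. Its fold enrichments were 4.82, 5.15 and 4.46, or 4.72 ± 0.375 (SD, n = 2). The best summit was in the left gain in both technical replicates and in the 12 h part in replicate 2. Over the 10 regions, the 12 h part held 4 best summits of technical replicate 1, 2 of technical replicate 2 and 4 of replicate 2. The 5 largest ratios were on scaffolds 3, 105, 2700, 326 and 870, from 8.45 down to 4.99, and all were among the 10 largest gains.

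**Figure D5:**
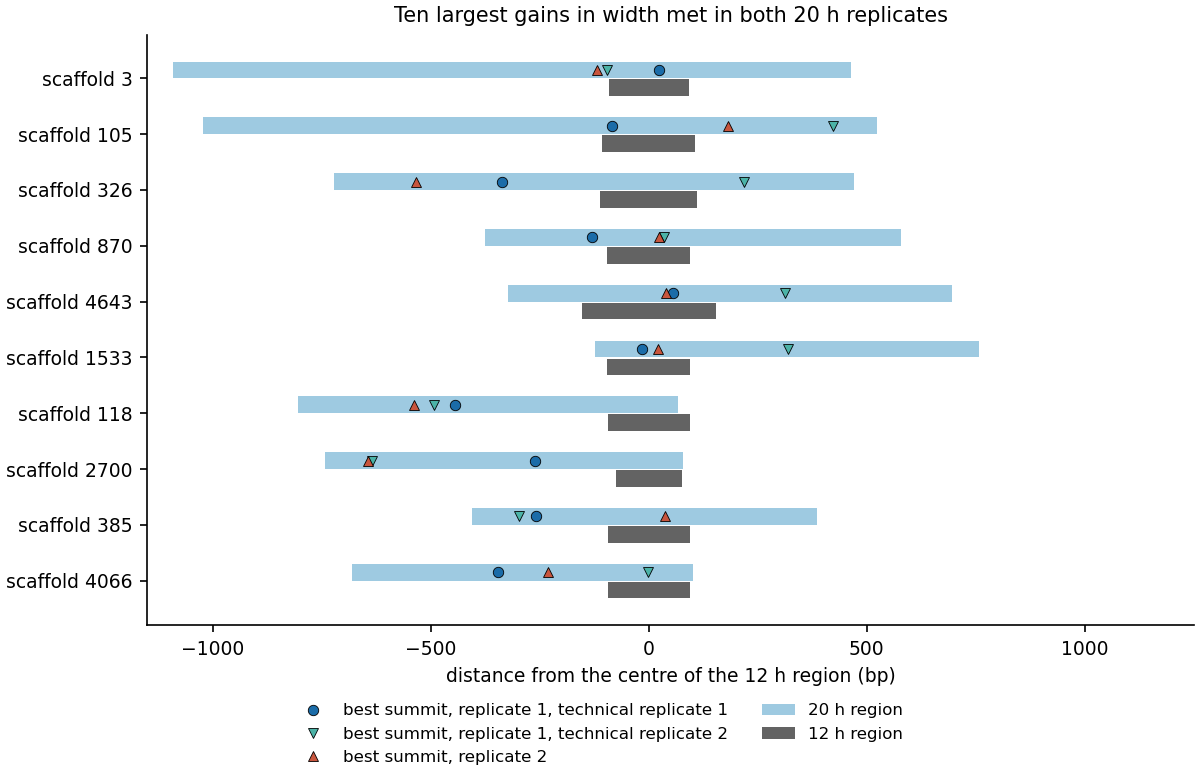
The 10 largest gains among the 99 regions whose width was met in both biological replicates, as 12 h (gray) and 20 h regions (blue) against distance from the 12 h centre (x axis, bp), with the best summit of each 20 h library. On scaffolds 118 and 2700 all 3 summits lie in the left gain, and on scaffold 105 they lie 85 bp left and 181 and 422 bp right of the 12 h centre.

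The highest mean fold enrichments among the 99 rested on replicate 2. On scaffold 24748 the region from 114 to 273 at 12 h became 169 to 674 at 20 h, with 11.6 in replicate 2, 3.01 in technical replicate 2 and no peak in technical replicate 1, or 7.32 ± 6.10 (SD, n = 2). On scaffold 276 the region from 263170 to 263435 became 263119 to 263838, with 5.90, 5.15 and 8.92, or 7.22 ± 2.40. The region of scaffold 1168 that spanned 24159 to 24695 had a mean of 6.21 ± 3.91, the one of scaffold 1178 at 129132 to 129648 had 6.01 ± 3.08 and the one of scaffold 849 at 99014 to 99799 had 6.01 ± 3.45. In all 5, replicate 2 had the highest value, from 8.19 to 11.6, and neither technical replicate exceeded 5.90. In all but the region on scaffold 24748, the best summit lay in the 12 h part in every library. These 5 gained 282 to 462 bp, and none was among the 10 largest gains. Lists of 5 and 10 from 99 regions can easily share none, so nothing is read from this. Wider regions outside the 99 were not ranked. Without replicate 2 the means fell to 3.01 on scaffold 24748, 3.45 on scaffold 1168, 3.83 on scaffold 1178 and 3.57 on scaffold 849, all by more than 1.5 times, so that library decided these values.

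The wider regions lay on 1675 of the 5772 scaffolds with a pair. Among the 71 scaffolds with at least 200 pairs, the highest shares were 10 of 216 on scaffold 55 (4.63%, Wilson interval 2.53 to 8.31), 9 of 213 on scaffold 34 (4.23%) and 9 of 227 on scaffold 33 (3.96%). These were picked as extremes and the interval of scaffold 55 lies just above the share of 2.44% over all pairs. Most of the 71 scaffolds had a share below the 2.44% of all pairs, and a single one had no wider region. Of the wider regions with a next pair on their scaffold, 141 of 2942 (4.79%) had a next pair that was also wider. This was above the 2.44% of all pairs, so wider regions also lay next to each other somewhat more often. The reason was not tested.

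The study had compared its signals with 389 genomic segments tested earlier for reporter activity, and their names and positions were used here. Among 344 pairs at these segments 3 were wider, or 0.872% (Wilson interval 0.297 to 2.53), and 47 (13.7%) were narrower by the same limit. The median 12 h length of the 344 was 447 bp, against 369 bp over all pairs, so fewer of them started short. The share of wider regions over all pairs, 2.44%, lies inside the interval.

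The largest gain of these 3 was in segment Hnf1_Ur_01, named for a homeodomain transcription factor. On scaffold 129 the region from 714136 to 714383 became 714285 to 714878, with a gain of -149 bp, a loss, on the left and of 495 bp on the right. Its fold enrichment was 3.78 in technical replicate 2 and 2.41 in replicate 2, with no peak in technical replicate 1, and both best summits lay in the right gain. In segment Myc_Ur_01, named for a transcription factor known for its part in cell growth, the region on scaffold 770 from 424000 to 424254 became 423741 to 424251. It gained 259 bp on the left, and its fold enrichments were 3.63, 2.24 and 3.79 in technical replicates 1 and 2 and replicate 2. The best summit was in the left gain in both technical replicates and in the 12 h part in replicate 2. In segment Ecr_Ir_01 the region on scaffold 6204 from 27105 to 27308 became 26998 to 27413, growing by 107 and 105 bp. It had 3.43 in technical replicate 2 and 2.92 in replicate 2, no peak in technical replicate 1, and both best summits in the 12 h part. The 3 segments thus showed a shift, a growth to the left and an even growth. The width was met in a single case, by technical replicate 2 in Hnf1_Ur_01 with a region of 580 bp, where replicate 2 had 150 bp. In Myc_Ur_01 technical replicate 1 and replicate 2 had 477 and 497 bp, just short of the limit.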

How the data were processed

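The authors mapped ATAC-seq reads to genome version 3.1 through the ENCODE pipeline for ATAC-seq. Peaks were those of MACS2 below a p of 0.05, at most 300000 of them, and the sources used here do not give its version. They deposited region positions, as the start and end of a region, in 1 list called on pooled libraries per stage, without a score. For each 20 h library they deposited summit positions, a fold enrichment over local background and a −log10 p, which are the peak caller's own values with no replicate error. The deposited score, −log10 q and authors' other columns were not used. The lists hold no read counts, so depth per region is unknown.

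Peaks of a library that overlapped or touched were merged, and the fold enrichment at a region was that of its highest peak. Replicate 1 counted as found when either technical replicate was, and technical replicates were averaged before any mean ± SD. Wilson intervals (95%) cover counting error only, and regions of a scaffold are not independent. No test was run, since the regions were chosen on the lists made from these reads. Members, lists and comparisons were chosen with earlier results of these data known.

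Among regions met in width in both biological replicates, the 10 largest gains, 5 largest ratios and 5 highest mean fold enrichments were named, along with the 2 pairs on each side of the limit, the wider regions at tested segments and the 3 scaffolds with the highest shares. Positions are 1-based. Regions carry no gene assignment, as no sequence or annotation of version 3.1 was used here. Alternatives were other ratio limits, a minimum gain, a 50% overlap, merging within 100 bp, isolated pairs, a stricter p, ranking by −log10 p and leaving out each library. Pairing, merging and summit functions were tested on simulated data. Python 3.11.15, numpy 2.4.6, pandas 2.3.3 and matplotlib 3.10.9 were used.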

Additional observations from a re-analysis of the deposited data

How the results depend on the processing

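With a ratio of at least 1.5 there were 9219 wider regions, of which 55.7% grew past both edges, 67.9% had the best summit in the 12 h part and 4.97% met the width in both biological replicates. With a ratio of at least 3 there were 635, and these shares were 69.6, 43.6 and 1.26%, with a peak in both replicates in 48.2%. An overlap of 50% of the shorter region gave a peak in both replicates in 46.9%. Merging regions within 100 bp gave 60.5% past both edges and 2.17% with the width met. Asking for no other region within 500 bp left 1394 regions. Keeping library peaks with a −log10 p of at least 3 gave 61.0% of best summits in the 12 h part, a fold enrichment of 3.49, a peak in both replicates in 25.7% and the width met in 2.52%, with fewer peaks by construction. Leaving out either technical replicate gave from 38.9 to 42.7% for a peak in both replicates and from 1.46 to 2.27% for the width met, which have no value without replicate 2. Leaving out each of the 3 libraries gave from 53.6 to 59.7% for the best summit and from 3.04 to 3.21 for the fold enrichment. Otherwise the cause was not tested. A minimum gain of 150 bp changed nothing, since every wider region gained more, and ranking by −log10 p left the summit share and the fold enrichment within 1 SD. Of 59 values of named regions under alternatives 4 moved by over 1.5 times, all without replicate 2. With 2 biological replicates, leaving out replicate 2 shifts a mean by a fixed part of its SD, so that the SD is no measure of that shift. No analysis paired between the stages was possible, since 12 h has only its pooled list. Wider regions and other pairs could be compared within each 20 h library, but no test was run.

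The main limits are a single list per stage and 2 biological replicates at 20 h that also differ in preparation and depth. A cap on the number of peaks was reached in technical replicate 2 and was also set for both pooled lists, which differ in depth. The width was met in both biological replicates in 99 of 3216 regions, and some of these library regions may lie beside the 12 h part. The lists thus show little repeated widening at this depth, and they do not show that it is absent elsewhere.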
